A study of Mus musculus with 18 samples.

Results

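The genes described here are integrin subunits, their ligands, selectin ligands, sphingosine 1-phosphate receptors, tetraspanins, galectins and actin linkers of mouse CD4 T cells. They were chosen by name, as the rows of the deposited expression table that carry the symbols of a list of 37 adhesion and trafficking genes. Of the 37, 36 were found among the 12547 genes of the table, and all 36 passed the filter on low values. The expression of Itga1 was not analysed here, and the gene enters only the promoter counts. The 36 are 10 integrin alpha subunits, 6 beta subunits, 7 ligands and mucins, 3 genes of lymphocyte egress, 6 tetraspanins, 2 galectins and 2 actin linkers.

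RNA-seq had been carried out on 18 libraries of T cells from 2 genotypes, Id3-KO and WT, with 3 libraries in each of 6 groups. All 6 groups were naive CD4 T cells activated with beads carrying antibodies against CD3 and CD28, in a Th1 medium with IL2, IL12 and a blocking antibody against IL4. The groups are KO and WT cells of 3 sets that the labels number 3, 5 and 6; the authors' deposited contrasts carry the number 24 for set 3 and 96 for the other sets, with no unit. The Id3 allele, the strain and age of the mice, any pooling of animals, and whether the replicates are separate animals or cultures are not given in the sources used here. The p-values therefore measure the spread between these libraries, which may be technical.

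Integrins are cell surface receptors made of an alpha and a beta subunit. On T cells they bind cell adhesion molecules on endothelium and antigen-presenting cells, cadherin on epithelium, or extracellular matrix, and signals from the T cell receptor and chemokine receptors switch them to a high-affinity state through talin, kindlin and Rap GTPases. Selectin ligands slow T cells on vessel walls before integrins arrest them, the sphingosine 1-phosphate receptors draw them out of lymphoid organs, and tetraspanins gather integrins and other receptors into membrane patches. Id3 is an inhibitor that pairs with E proteins, transcription factors that bind E-box DNA (CANNTG), and keeps them from DNA.

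Id3 itself checks the labels. Its log2 level was 2.15 to 3.64 in KO and 9.60 to 10.08 in WT libraries of set 3, 2.02 to 5.63 against 8.85 to 9.53 in set 5, and 1 to 4.97 against 8.89 to 9.49 in set 6. All 9 T cell markers were measured, and Cd3e, a chain of the T cell receptor complex, was at 12.53 to 14.10 on the log2 scale over the 18 libraries. Each library had a floor, a lowest value of 1 to 1.11 shared by 149 to 350 genes. Sorted by size, the values of a group's libraries were the same at 97 to 98.4% of ranks, and the depth of single libraries is unknown. The median difference of all genes between KO and WT was -0.07 in set 3, 0.39 in set 5 and 0.42 in set 6 on the log2 scale, so a gene is called here only where limma passed it, at a Benjamini-Hochberg adjusted p under 0.05, both on the deposited values and on values centred on each library's median. Differences below are KO minus WT log2 differences of the deposited values with their standard error (SE, n = 3 against 3), and each adjusted p is limma's on those values. The centred values can give a larger adjusted p, and a call needs both to pass.

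The set 3 KO libraries also held markers of other cell types. B cell markers were higher in 6 of 8, with a summed log2 level of 10.97 in replicate 1 and 8.02 and 8.36 in replicates 2 and 3, against 6.27 to 7.504 in WT. All 4 measured of 8 dendritic cell markers were higher (13.80 in KO replicate 1, 11.64 and 12.19 in the others, 10.63 to 10.97 in WT), as were 5 of the 6 measured of 11 mast cell and granulocyte markers (9.23 to 9.59 against 5.80 to 6.78) and 3 of the 5 measured of 7 erythroid markers (11.60 to 13.79 against 8.28 to 9.26). None of these markers was at the floor in all 3 KO libraries of set 3. The dendritic cell sum rested mostly on Cd74, H2-Aa and H2-Ab1, at 13.05, 11.71 and 11.15 in KO replicate 1, where Zbtb46 was at 6.59. Of the T cell markers in set 3, Thy1 was higher and Cd3d, Cd3g, Cd247 and Cd4 were lower in KO cells, and the summed T cell level was 15.82 to 15.91 in KO and 15.92 to 16.13 in WT libraries. Of 4 measured of 9 macrophage markers, Cd68 was higher in KO cells of all 3 sets and Adgre1 in sets 5 and 6, with a summed log2 level of 9.41 to 9.84 in KO against 7.30 to 7.73 in WT libraries of set 5 and 10.32 to 10.53 against 8.52 to 9.39 in set 6. Lyz2, another macrophage marker, was at the floor in all 3 KO libraries of set 6. No B cell marker was called in sets 5 and 6; of the dendritic cell markers Cd74 was higher in both and H2-Aa in set 5, and of the mast cell markers Kit was lower in both. Of 2 measured of 6 gamma-delta and NKT cell markers, Zbtb16 was higher in KO cells of all 3 sets, and the summed level was 6.76 to 8.33 in KO against 4.29 to 5.74 in WT libraries of set 3, 3.92 to 6.04 against 2.67 to 3.95 in set 5, and 6.33 to 6.58 against 3.64 to 4.47 in set 6. The other measured marker, Sox13, was called in no set, at 4.08 to 4.88 in KO and 3.58 to 5.35 in WT libraries of set 3. Of the T cell markers, Cd247 and Cd4 were higher in KO cells of sets 5 and 6, opposite to set 3, with a summed level of 17.40 to 17.499 against 16.89 to 16.96 in set 5 and 17.51 to 17.56 against 16.93 to 17.07 in set 6. Klra8, an NK cell marker, and Epcam, from the endothelial and stromal list, were higher in set 5, and Kdr of that list was lower in sets 5 and 6. B cells, macrophages and mast cells are known to express several of the genes described here, among them Itgax, Itgam, Cd9, Cd63 and Lgals3, and the part of such cells in the results was not tested. In bulk RNA, fewer cells of a type and less RNA per cell cannot be told apart.

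Promoter sequences are shown for 4 members whose KO minus WT difference changed between set 3 and set 6, and for all but Cd9 also between set 3 and set 5: the tetraspanins Tspan32 and Cd81, higher in KO cells of both later sets, whose start sites lie 47.7 kb apart, the tetraspanin Cd9, lower there, and a galectin with calls of opposite sign. Each run is 300 bases long, mostly upstream of the RefSeq start site, 5′ to 3′ on the gene's strand, in the GRCm38.p6 build, which is not the GRCm39 build named in the submitters' processing notes. Capitals mark the E-box letters CAGCTG, which reads the same on both strands, and CAGGTG, searched on both strands.
Tspan32 (chr7:143004796-143005095, plus strand): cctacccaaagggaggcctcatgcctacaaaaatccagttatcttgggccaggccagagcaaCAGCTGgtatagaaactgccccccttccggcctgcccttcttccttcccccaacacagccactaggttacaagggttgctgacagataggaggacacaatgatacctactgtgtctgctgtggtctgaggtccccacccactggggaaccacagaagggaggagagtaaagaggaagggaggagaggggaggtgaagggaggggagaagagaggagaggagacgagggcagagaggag
Cd81 (chr7:143052500-143052799, plus strand): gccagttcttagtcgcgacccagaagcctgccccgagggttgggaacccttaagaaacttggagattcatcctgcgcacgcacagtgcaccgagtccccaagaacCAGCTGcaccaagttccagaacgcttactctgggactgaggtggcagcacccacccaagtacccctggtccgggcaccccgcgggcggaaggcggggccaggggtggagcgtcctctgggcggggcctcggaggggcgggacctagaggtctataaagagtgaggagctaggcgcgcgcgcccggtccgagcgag
Cd9 (chr6:125494711-125495010, minus strand): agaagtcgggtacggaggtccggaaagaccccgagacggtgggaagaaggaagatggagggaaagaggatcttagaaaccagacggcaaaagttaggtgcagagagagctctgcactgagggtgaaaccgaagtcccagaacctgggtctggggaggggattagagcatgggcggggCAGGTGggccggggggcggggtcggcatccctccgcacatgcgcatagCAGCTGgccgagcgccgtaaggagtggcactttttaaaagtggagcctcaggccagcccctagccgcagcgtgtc
Lgals3 (chr14:47373610-47373909, plus strand): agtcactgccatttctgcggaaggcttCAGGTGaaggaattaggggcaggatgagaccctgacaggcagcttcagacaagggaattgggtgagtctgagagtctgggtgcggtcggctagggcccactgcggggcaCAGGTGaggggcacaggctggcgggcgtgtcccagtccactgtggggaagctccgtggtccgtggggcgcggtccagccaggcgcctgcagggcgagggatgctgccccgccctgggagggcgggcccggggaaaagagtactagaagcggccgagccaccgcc
The first base of the CAGCTG match lay at -188 in Tspan32 and at -145 in Cd81, counted from the start site. Cd9 held CAGGTG at -73 and CAGCTG at -25, and Lgals3 held CAGGTG at -223 and -114. CAGCTG was in 16.3%, CAGGTG in 20.2% and either in 32.9% of the 32851 promoters of the same length in the RefSeq table. Of the 37 listed genes 27 were matched, Itga1 among them, with 35 promoters, of which 19 (54.3%) held either motif. The 4 shown are not all the members whose difference changed between set 3 and set 6. Of the others in the RefSeq table, Itga2, Itgb1 and Itgb7 held neither motif. Itga5, Itgb5 and Cd82 held a match in at least 1 promoter, and Tspan9 in only 1 of several. The members were listed with earlier results known, and a match is a run of letters, not a binding site.

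In set 3, 12 of the 36 genes differed between KO and WT, 10 higher and 2 lower, where 10.2% of all genes were called (6.91% higher, 3.28% lower). The 10 were the integrin subunits Itga2, Itgae, Itgav, Itgb3 and Itgb5, the ligand Icam1, the tetraspanins Cd82 and Tspan9, and the galectins Lgals1 and Lgals3. The 2 lower genes were Tspan32 and Actn1. In set 5, 15 were called, 10 higher and 5 lower, against 32.9% of all genes (24.9% higher, 8.08% lower). In set 6, 19 were called, 12 higher and 7 lower, against 23.3% of all genes (18.8% higher, 4.59% lower). The members' median log2 difference was 0.13 in set 3, 0.49 in set 5 and 0.46 in set 6, beside -0.07, 0.39 and 0.42 for all genes. For the mean of the 3 sets 19 were called, 14 higher and 5 lower, against 34.2% of all genes (25.9% higher, 8.34% lower). On the deposited values alone the calls were 16 higher and 5 lower in set 5, 17 and 7 in set 6, and 20 and 5 for the mean; on the centred values alone they were 10 and 7, 12 and 9, and 14 and 8. Without KO replicate 1, the library with the high B cell markers, 8 were called in set 3, 7 higher and 1 lower, and a fit of the set 3 libraries alone called 5. In that fit Itga2 (adjusted p = 0.106, the larger of the 2 scales), Itgb3 (0.078), Itgb5 (0.19), Icam1 (0.0727), Lgals1 (0.0618), Lgals3 (0.0848) and Actn1 (0.0726) lost their call. Fits of their own set alone also ended the set 5 call of Alcam (0.0617) and the set 6 call of Itga5 (0.073).

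**Figure D1:**
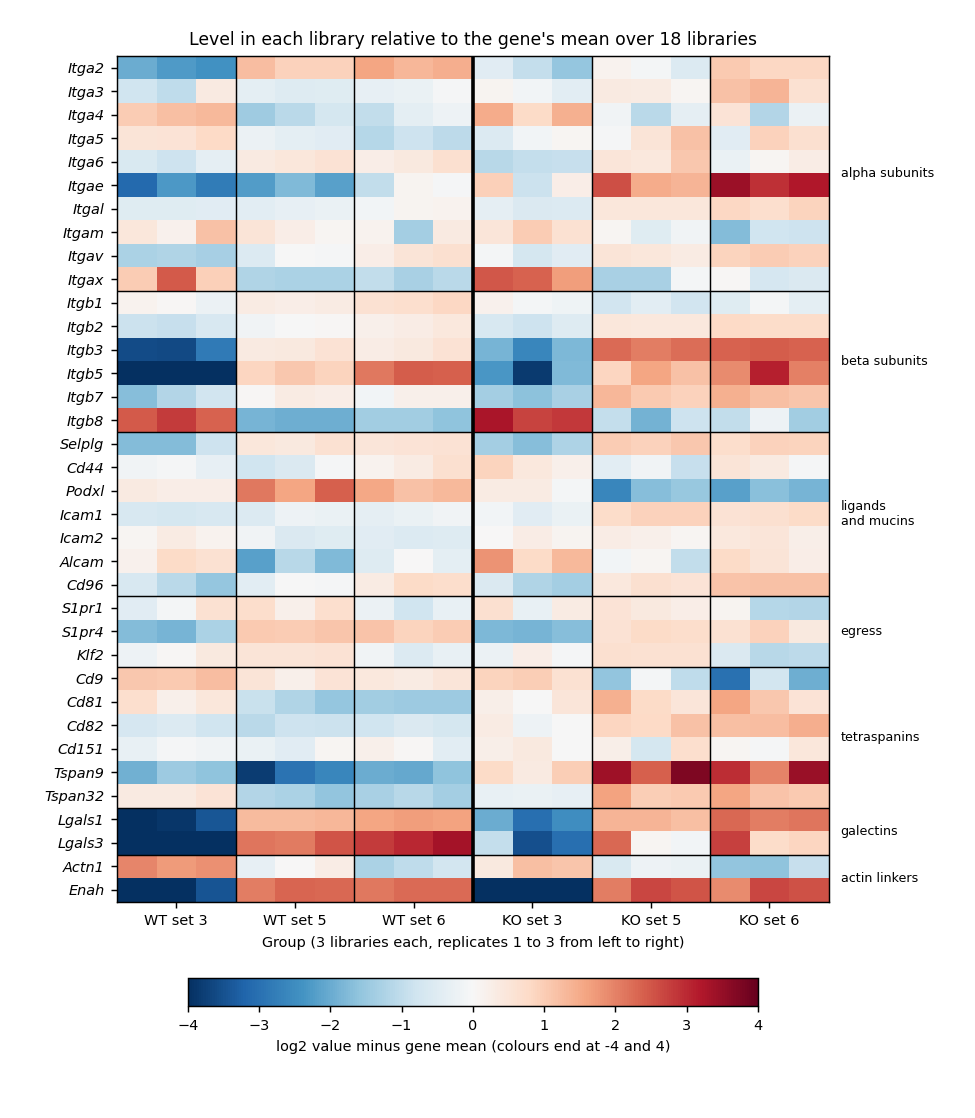
Log2 level of each of the 36 genes (rows, grouped by role) in each of the 18 libraries (columns, by group), as the difference from the gene's own mean over the 18 libraries. Itgae, Itgb3, Cd82 and Tspan9 are red in KO libraries of sets 5 and 6; Podxl and Cd9 are blue there.

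By pattern, 5 members were higher in KO cells of all 3 sets, Itgae, Itgb3, Icam1, Cd82 and Tspan9, where 1.97% of all genes were. None was lower in all 3 (0.223% of all genes). A further pattern, lower in sets 5 and 6, held 4 members, Itgb1, Podxl, S1pr4 and Cd9 (3.47% of all genes), and 9 were higher in sets 5 and 6 (15.8% of all genes): the 5 above, Itgal, Itgb7, Cd81 and Tspan32. Calls of opposite sign fell on 3 members, Itga2, Tspan32, which is also among the 9, and Lgals3 (1.53% of all genes), 11 were called in no set (57.6% of all genes) and 25 in at least 1 (42.4% of all genes). The 3 comparisons use separate libraries but the same estimate of the spread. Libraries of equal replicate number deviated together in sets 5 and 6, so calls shared by these sets are not independent repeats.

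**Figure D2:**
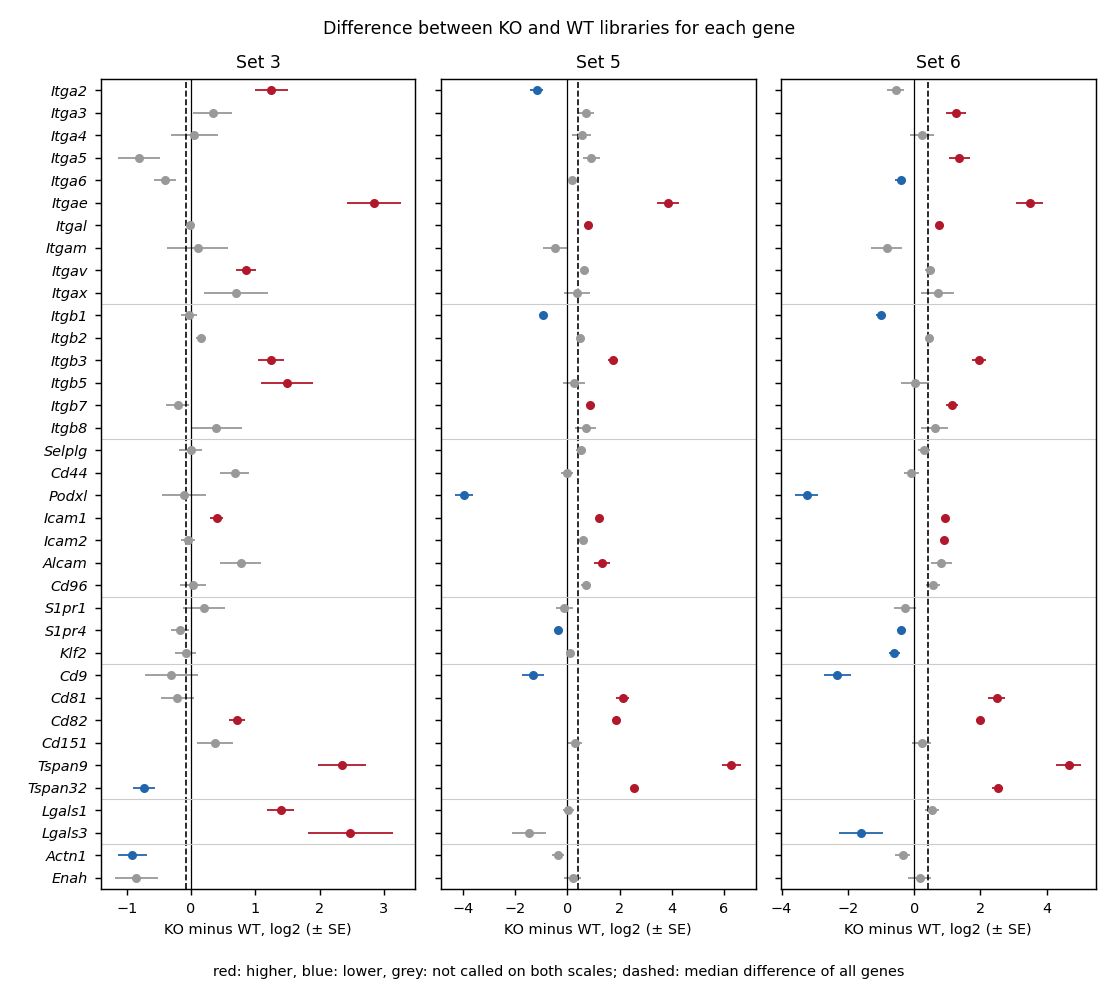
KO minus WT log2 difference of each gene (points) with its SE (bars) in sets 3, 5 and 6; red and blue mark genes called higher and lower on both scales, the dashed line is the median of all genes, and the horizontal scale differs between panels. Tspan9 stands farthest to the right in sets 5 and 6, at 6.29 and 4.66, and Podxl farthest to the left, at -3.97 and -3.25.

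Among alpha subunits the widest difference was in Itgae, which encodes the alpha E subunit (CD103) that pairs with beta 7 and binds E-cadherin on epithelium. In set 3 its log2 level was 3.79, 4.60 and 4.10 in the 3 WT libraries and 7.85, 6.02 and 7.16 in the KO libraries. The set 5 levels were 4.65, 5.11 and 4.73 in WT and 9.48, 8.36 and 8.24 in KO. The set 6 levels were 5.92, 7.01 and 6.84 in WT and 10.31, 9.81 and 10.10 in KO libraries. Every KO library lay above every WT library of its own set. The log2 difference was 2.85 ± 0.42 in set 3 (7.2-fold, adjusted p = 0.000458), 3.86 ± 0.42 in set 5 (14.6-fold, 1.15e-06) and 3.48 ± 0.42 in set 6 (11.2-fold, 4.32e-06). The effect did not pass the test for a change between sets (1.02 ± 0.59 more in set 5 than in set 3, adjusted p = 0.167). Its partner gene Itgb7, whose beta 7 subunit also pairs with alpha 4 to bind MAdCAM in gut vessels, had log2 levels of 10.44 to 11.38 in WT and 10.53 to 10.85 in KO libraries of set 3, which overlapped. In set 5 Itgb7 was at 12.20, 12.49 and 12.41 in WT and 13.48, 13.19 and 13.06 in KO cells. Set 6 had levels of 12.06, 12.34 and 12.35 in WT and 13.59, 13.35 and 13.25 in KO cells. Here the groups no longer overlapped, with log2 differences of 0.88 ± 0.18 (adjusted p = 0.000621) and 1.15 ± 0.18 (6.2e-05). The set 5 call of Itgb7 was lost on leaving out KO replicate 1 or 2, or WT replicate 1 or 3. Its limma adjusted p was then 0.0543 to 0.148, beside 0.0355 with all libraries (0.00517 in set 6). These are the larger of the 2 scales, as is every leave-one-out value below and any all-library value beside it.

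The beta 3 gene, whose subunit pairs with alpha v and binds matrix proteins such as vitronectin, was higher in KO cells of every set. Itgb3 log2 levels in set 3 were 7.17, 7.16 and 7.94 in WT and 8.89, 8.14 and 8.98 in KO libraries. In set 5 they were 11.11, 11.14 and 11.35 against 13.04, 12.81 and 12.98. In set 6 they were 11.07, 11.15 and 11.34 against 13.12, 13.18 and 13.12. No KO library overlapped the WT range of its set, and the log2 differences were 1.24 ± 0.20 (adjusted p = 0.001), 1.75 ± 0.20 (2.28e-06) and 1.95 ± 0.20 (1.05e-06). Itgav, the alpha v partner, was called only in set 3, where its log2 level was 9.15, 9.19 and 9.08 in WT and 10.33, 9.71 and 9.95 in KO cells (log2 difference 0.85 ± 0.15, adjusted p = 0.00186). In sets 5 and 6 Itgav differed by 0.63 ± 0.15 and 0.48 ± 0.15 on the deposited log2 values and by 0.25 and 0.06 on the centred values, and the change of its effect between sets was not called. Itgb5, another alpha v partner, was at 2.28, 1.94 and 2.13 in WT and 3.93, 2.42 and 4.49 in KO libraries of set 3 on the log2 scale. Its log2 difference of 1.49 ± 0.41 (adjusted p = 0.0279) lost its call without any of 5 of the 6 libraries, all but KO replicate 2 (adjusted p 0.0569 to 0.126). Itgb5 levels overlapped in set 5 (7.12 to 7.35 in WT, 7.12 to 7.82 in KO) and in set 6 (8.38 to 8.67 and 8.15 to 9.37).

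Itgb1, whose beta 1 subunit is the shared partner of many alpha subunits that bind collagen, fibronectin and laminin, was lower in KO cells of the later sets. Its log2 level in set 3 was 12.09, 11.999 and 11.71 in WT and 12.11, 11.85 and 11.76 in KO libraries, which overlapped. Set 5 had levels of 12.25, 12.21 and 12.26 against 11.16, 11.53 and 11.17. In set 6 it was 12.54, 12.61 and 12.78 against 11.46, 11.87 and 11.56. All KO libraries of sets 5 and 6 lay below all WT libraries, with log2 differences of -0.95 ± 0.13 (adjusted p = 1.06e-05) and -1.01 ± 0.13 (7.31e-06). The effect was lower by 0.92 ± 0.18 in set 5 than in set 3 (an interaction value of -0.92, adjusted p = 0.000569) and the set 6 interaction was -0.98 ± 0.18 (0.000398).

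The alpha subunits that pair with beta 1 did not follow 1 direction. Itga2, the collagen-binding alpha 2 subunit, had log2 levels of 3.98, 3.70 and 3.55 in WT and 5.51, 5.02 and 4.44 in KO libraries of set 3, so KO was higher (1.25 ± 0.25, adjusted p = 0.00467). In set 5 it was at 7.22, 6.90 and 6.89 in WT and 6.11, 5.90 and 5.44 in KO, so KO was lower (-1.19 ± 0.25, 0.000778). Neither pair of groups overlapped, and the interaction was -2.43 ± 0.36 (4.57e-05). In set 6 the Itga2 log2 difference of -0.55 ± 0.25 passed on the centred values only (adjusted p = 0.0724 and 0.00725 centred). Itga3, a laminin-binding subunit, was called in set 6 alone, with log2 levels of 5.49, 5.54 and 5.75 in WT and 6.99, 7.15 and 6.42 in KO cells (1.26 ± 0.30, adjusted p = 0.0019). That call was lost without any of 5 of the 6 libraries, all but KO replicate 3 (adjusted p 0.0504 to 0.122, beside 0.036 with all libraries).

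Itga5, the fibronectin-binding alpha 5 subunit, had log2 levels in set 6 of 5.47, 5.77 and 5.56 in WT and 6.15, 7.52 and 7.23 in KO cells, a difference of 1.36 ± 0.32 (adjusted p = 0.00182). The groups did not overlap, but the call was lost on leaving out KO replicate 2 or 3, or WT replicate 1 or 3 (0.067 to 0.135, beside 0.0294 with all libraries). In set 3 Itga5 was at 7.11 to 7.41 in WT and 6.05 to 6.69 in KO cells, a log2 difference of -0.81 ± 0.32 that did not pass (adjusted p = 0.118). The change of its effect from set 3 passed, at 1.72 ± 0.46 in set 5 (0.00514) and 2.18 ± 0.46 in set 6 (0.00101). Itga6, a laminin-binding subunit, was at 11.31, 11.43 and 11.69 in WT and 10.77, 11.10 and 11.33 in KO libraries of set 6 on the log2 scale. These ranges overlapped, and the difference of -0.41 ± 0.17 (adjusted p = 0.047) lost its call on removing KO replicate 1 or 2, or WT replicate 2 or 3 (0.0721 to 0.221). Itga4, which pairs with beta 1 or beta 7 and binds VCAM, was called in no set, with log2 differences of 0.05, 0.54 and 0.24 (SE 0.36 each).

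Of the leukocyte integrins that share beta 2, Itgal, the alpha L subunit of LFA, the receptor for ICAMs, was higher in KO cells of sets 5 and 6. Its log2 level was 12.14, 12.23 and 12.28 in WT and 13.01, 13.00 and 13.01 in KO libraries of set 5. The set 6 levels were 12.45, 12.67 and 12.68 against 13.37, 13.23 and 13.46. In set 3 the groups overlapped, at 12.06 to 12.09 in WT and 11.98 to 12.18 in KO libraries. The log2 differences of Itgal were 0.79 ± 0.07 (adjusted p = 2.69e-07) and 0.75 ± 0.07 (6.25e-07), and 0.40 and 0.34 on the centred values. The larger limma adjusted p of the 2 scales was 0.000366 in set 5 and 0.00199 in set 6. Itgb2, the beta 2 subunit, differed by 0.47 ± 0.08 and 0.45 ± 0.08 in sets 5 and 6 on the deposited log2 values and by 0.08 and 0.04 on the centred values, so it was not called. Itgam and Itgax, better known from myeloid cells, were low and called in no set. Itgam ranged from 1.11 to 4.02 over the 18 libraries on the log2 scale. Itgax sat at the floor in the 3 WT libraries and 2 KO libraries of set 5 and in 1 WT library of set 6. Itgb8, whose product activates TGF-beta, was also called in no set and sat at the floor in the WT libraries of set 5.

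**Figure D3:**
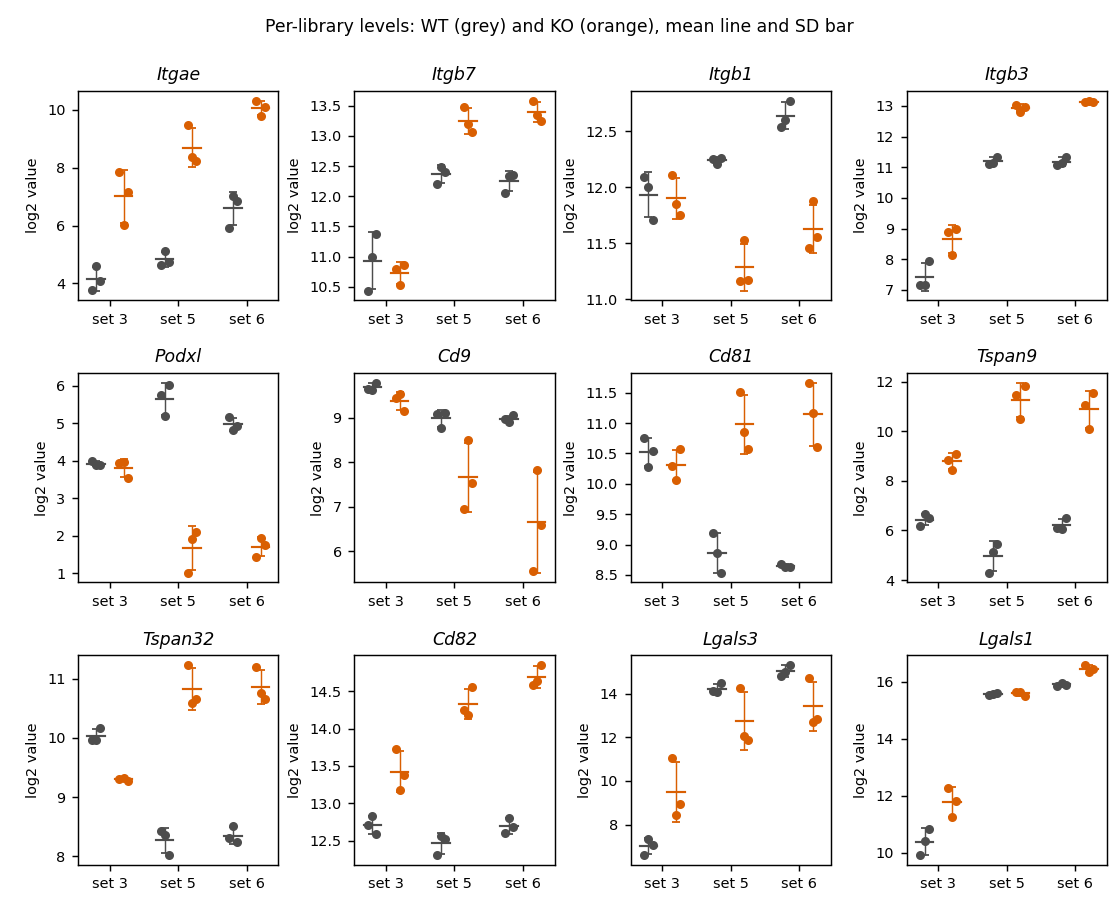
Log2 level of 12 of the genes in each WT (grey) and KO (orange) library of sets 3, 5 and 6, with the mean as a line and the SD (n = 3) as a bar; each panel has its own vertical scale. Itgb1, Podxl and Cd9 in KO libraries of sets 5 and 6 lie below the WT libraries, and Cd81, Tspan9 and Tspan32 lie above them.

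Among ligands and mucins, Podxl had the widest differences in sets 5 and 6. It encodes podocalyxin, a heavily glycosylated sialomucin of the CD34 family that can carry selectin ligands. In set 3 its log2 level was 3.998, 3.87 and 3.88 in WT and 3.95, 3.95 and 3.54 in KO libraries, which overlapped. The set 5 levels were 5.74, 5.19 and 6.02 in WT and 1.02, 1.92 and 2.09 in KO, the first of these at the lowest value of its library. Set 6 had levels of 5.17, 4.81 and 4.93 in WT and 1.44, 1.95 and 1.76 in KO. All 6 KO libraries of the later sets were below every WT library. The log2 difference was -3.97 ± 0.35 in set 5 (adjusted p = 1.34e-07) and -3.25 ± 0.35 in set 6 (1.27e-06), and the interactions with set 3 were -3.87 ± 0.49 (1.22e-05) and -3.14 ± 0.49 (9.37e-05). Since the KO values are close to the lowest value of the table, the size of these differences depends on it.

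Icam1, a ligand of LFA that activated T cells also carry, was higher in all 3 sets. Its log2 level was 11.05, 10.99 and 11.06 in WT and 11.60, 11.26 and 11.44 in KO libraries of set 3. Set 5 had levels of 11.15, 11.49 and 11.45 against 12.43, 12.61 and 12.63. In set 6 it was 11.34, 11.44 and 11.56 against 12.28, 12.34 and 12.48. KO and WT did not overlap in any set, with log2 differences of 0.40 ± 0.10 (adjusted p = 0.0175), 1.198 ± 0.10 (9.5e-08) and 0.92 ± 0.10 (1.64e-06). The larger limma adjusted p of the 2 scales was 1.11e-05 in set 5 and 0.00106 in set 6. The set 3 call of Icam1 was lost on leaving out KO replicate 1 or 3, or WT replicate 2 (adjusted p 0.0522 to 0.108). Icam2, a second LFA ligand, was at 9.87, 9.76 and 9.80 in WT and 10.74, 10.80 and 10.56 in KO libraries of set 6 on the log2 scale, a difference of 0.89 ± 0.11 (6.39e-06). In set 3 its difference was -0.05 ± 0.11, and in set 5 it was 0.60 ± 0.11 on the deposited and 0.21 on the centred values, which was not called.

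Alcam, the ligand of CD6, was called in set 5, at log2 levels of 6.06, 7.13 and 6.48 in WT and 8.11, 8.30 and 7.24 in KO cells (1.33 ± 0.32, adjusted p = 0.00182). The groups did not overlap, and the call was lost on leaving out KO replicate 1 or 2, or WT replicate 1 or 3 (0.056 to 0.113, beside 0.0214 with all libraries). Selplg, which encodes PSGL, the main P-selectin ligand of T cells, differed by -0.01, 0.52 and 0.30 on the log2 scale in the 3 sets (SE 0.18 each) and was called in none. Cd44, the hyaluronan receptor, was likewise not called, at 0.68, -0.01 and -0.08 (SE 0.23 each), and neither was Cd96, a receptor for a nectin-like ligand, at 0.03, 0.71 and 0.56 (SE 0.21 each).

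Of the 3 egress genes none was called in set 3. S1pr4, a sphingosine 1-phosphate receptor of lymphocytes, had log2 levels of 10.94, 10.92 and 11.03 in WT and 10.50, 10.68 and 10.62 in KO libraries of set 5. The set 6 levels were 11.06, 10.81 and 10.93 against 10.52, 10.82 and 10.29, where KO replicate 2 overlapped the WT range. The log2 differences of -0.36 ± 0.14 (adjusted p = 0.0343) and -0.39 ± 0.14 (0.0241) were the smallest called in these sets. In set 5 the S1pr4 call was lost without any of 5 of the 6 libraries, all but KO replicate 2 (0.0569 to 0.108), and in set 6 on leaving out KO replicate 1 or 3, or WT replicate 1 or 3 (0.051 to 0.134). Klf2, the transcription factor that drives S1pr1, was lower in KO cells of set 6, with log2 levels of 10.02, 9.61 and 9.86 in WT and 9.57, 9.03 and 9.10 in KO libraries. The KO libraries were all below the WT libraries (-0.60 ± 0.16, adjusted p = 0.00494), while in set 5 the difference was 0.09 ± 0.16. S1pr1, the receptor that mediates egress from lymph nodes, was called in no set, at 0.21, -0.12 and -0.28 (SE 0.33 each).

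Tspan9, a tetraspanin, had the widest difference of the 36 genes in sets 5 and 6. It was at log2 levels of 6.18, 6.65 and 6.49 in WT and 8.85, 8.44 and 9.07 in KO libraries of set 3. In set 5 it was at 4.29, 5.13 and 5.47 against 11.48, 10.48 and 11.82. Set 6 had levels of 6.11, 6.06 and 6.49 against 11.04, 10.08 and 11.54. Each KO library was above all 9 WT libraries, in any set. The log2 difference of Tspan9 was 2.35 ± 0.38 in set 3 (5.09-fold, adjusted p = 0.000896), 6.29 ± 0.38 in set 5 (78.5-fold, 7.46e-09) and 4.66 ± 0.38 in set 6 (25.4-fold, 1.18e-07). The effect was larger in the later sets than in set 3, by 3.95 ± 0.53 (2.16e-05) and 2.32 ± 0.53 (0.00208), and the set 6 interaction was lost without KO replicate 3 of set 6 (adjusted p = 0.0555).

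Tspan32 and Cd81, which lie near each other on chromosome 7 with the start of R74862 between theirs, were both higher in KO cells of the later sets. Cd81 is part of the B cell co-receptor and is also found on T cells, and Tspan32 restrains T cell proliferation in mice. Tspan32 was lower in KO cells of set 3, at log2 levels of 9.97, 9.97 and 10.16 in WT and 9.31, 9.33 and 9.27 in KO libraries (-0.73 ± 0.16, adjusted p = 0.00895). The set 5 levels were 8.43, 8.36 and 8.02 in WT and 11.23, 10.59 and 10.66 in KO. In set 6 it was at 8.30, 8.51 and 8.25 in WT and 11.19, 10.76 and 10.65 in KO. The order of the groups was thus reversed with no overlap in any set, the later log2 differences being 2.56 ± 0.16 (1.17e-08) and 2.52 ± 0.16 (2.53e-08). The interactions with set 3 were 3.29 ± 0.23 (3.51e-07) and 3.25 ± 0.23 (6.31e-07). Cd81 overlapped in set 3, at log2 levels of 10.75, 10.28 and 10.54 in WT and 10.30, 10.06 and 10.57 in KO cells. Set 5 had levels of 9.19, 8.86 and 8.54 against 11.51, 10.85 and 10.58. The set 6 levels were 8.68, 8.63 and 8.63 against 11.65, 11.16 and 10.61. Cd81 was higher in all KO libraries of those sets, by 2.12 ± 0.25 (3.02e-06) and 2.49 ± 0.25 (8.56e-07).

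Cd82, which binds integrins and limits cell migration, was higher in every set. Its log2 level was 12.71, 12.83 and 12.59 in WT and 13.72, 13.17 and 13.38 in KO libraries of set 3. In set 5 it was 12.31, 12.56 and 12.52 against 14.25, 14.18 and 14.55. Set 6 had levels of 12.60, 12.81 and 12.68 against 14.59, 14.63 and 14.85. The groups never overlapped, and the log2 difference was 0.72 ± 0.13 (adjusted p = 0.00198), 1.86 ± 0.13 (2e-08) and 1.99 ± 0.13 (2.16e-08), larger in the later sets by 1.15 ± 0.18 (8.3e-05) and 1.28 ± 0.18 (4.39e-05).

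Cd9, a tetraspanin that associates with beta 1 integrins, moved the other way. Its log2 level was 9.64, 9.61 and 9.78 in WT and 9.43, 9.53 and 9.15 in KO libraries of set 3. The set 5 levels were 9.07, 8.76 and 9.11 against 6.96, 8.49 and 7.52. In set 6 it was 8.97, 8.89 and 9.05 against 5.55, 7.82 and 6.59. KO replicate 2 was the highest of the KO libraries in each set, and all KO libraries were below all WT libraries of their set. The log2 difference of Cd9 did not pass in set 3 (-0.31 ± 0.41, adjusted p = 0.661) and was -1.33 ± 0.41 in set 5 (0.0116) and -2.31 ± 0.41 in set 6 (0.000175). Without KO replicate 1 the set 5 call was lost (adjusted p = 0.0693). The interaction passed for set 6 (-2.01 ± 0.58, 0.00966) and not for set 5 (-1.02 ± 0.58, 0.159). Cd151, the laminin-integrin partner, was called in no set, at log2 differences of 0.37, 0.28 and 0.22 (SE 0.28 each).

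Both galectins, lectins that bind glycans on integrins and other receptors, were higher in KO cells of set 3. Lgals1 was at log2 levels of 9.93, 10.40 and 10.85 in WT and 12.29, 11.26 and 11.81 in KO libraries, with no overlap (1.39 ± 0.21, adjusted p = 0.000521). In set 5 the Lgals1 groups overlapped, at 15.54 to 15.61 in WT and 15.50 to 15.65 in KO, and in set 6 the difference of 0.54 ± 0.21 was 0.13 on the centred values and not called. The effect of Lgals1 was lower in the later sets than in set 3, with interactions of -1.36 ± 0.30 (0.00125) and -0.85 ± 0.30 (0.0259); the second was lost without KO replicate 1 or WT replicate 1 of set 3, or KO or WT replicate 2 of set 6 (adjusted p 0.051 to 0.0747). Lgals3 was at 6.61, 7.33 and 7.08 in WT and 11.04, 8.45 and 8.96 in KO libraries of set 3 on the log2 scale. Set 5 had levels of 14.12, 14.05 and 14.48 against 14.27, 12.06 and 11.86. The set 6 levels were 14.79, 14.98 and 15.31 against 14.72, 12.71 and 12.85. KO replicate 1 was more than 1 log2 unit above the other KO libraries in all 3 sets; in set 5 it lay within the WT range.

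The Lgals3 log2 difference was 2.47 ± 0.66 in set 3 (adjusted p = 0.0237), -1.49 ± 0.66 in set 5 (0.064, not called) and -1.60 ± 0.66 in set 6 (0.0473). The set 3 call was lost on removing KO replicate 1, or WT replicate 1 or 3 (0.0553 to 0.139), and the set 6 call without any of 5 of the 6 libraries, all but KO replicate 1 (0.0681 to 0.166). The Lgals3 interactions, -3.96 ± 0.93 (0.00225) and -4.08 ± 0.93 (0.00197), passed without each library in turn. In set 3 the high Lgals3 and Lgals1 values of KO replicate 1 stood beside the high B cell and dendritic cell markers of that library. That library was also the highest KO library of set 3 for Itga2, Itgae, Itgav, Icam1 and Cd82, but not for Itgb3, Itgb5 and Tspan9. The summed B cell level of KO replicates 1, 2 and 3 was 7.38, 7.05 and 7.02 in set 5 and 7.54, 7.64 and 6.55 in set 6. The part of other cells in these values was not tested.

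Of the actin linkers, Actn1, the alpha actinin that ties integrins to actin, was at log2 levels of 11.64, 11.41 and 11.53 in WT and 10.10, 10.92 and 10.82 in KO libraries of set 3. All KO libraries were lower (-0.91 ± 0.23, adjusted p = 0.0155), but the call was lost without KO or WT replicate 1 (0.0711 to 0.113). In sets 5 and 6 the Actn1 differences of -0.36 ± 0.23 and -0.35 ± 0.23 passed on the centred values only (0.0119 and 0.0142). Enah, an Ena/VASP protein that elongates actin filaments, was called in no set, at -0.85, 0.20 and 0.16 (SE 0.33 each).

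Whether the KO effect changed between sets was tested by the interactions. Between set 3 and set 5, 12 members changed, 7 upward and 5 downward, against 25.5% of all genes (18.7% upward, 6.82% downward). Between set 3 and set 6, 15 changed, 8 upward and 7 downward, against 16.8% of all genes (12.7% upward, 4.11% downward). On the deposited values alone these were 10 upward and 5 downward, and 11 and 7; on the centred values alone they were 7 and 9, and 8 and 11. Between sets 5 and 6, without the replicate number in the model, limma called no member and no gene of the table (0% of all genes); at an unadjusted p under 0.05 there were 3 members on the deposited and 4 on the centred values, and 1320 and 1246 of all genes. Libraries of equal replicate number deviated together in sets 5 and 6, and with a block of the replicate number within genotype, added after seeing the data, 4 members changed between these sets, 1 upward and 3 downward, beside 3.44% of all genes. They were Lgals1 (0.51 ± 0.08, limma adjusted p = 0.0277), Itga6 (-0.59 ± 0.12, limma adjusted p = 0.0395), Cd9 (-0.99 ± 0.21, limma adjusted p = 0.0443) and Tspan9 (-1.63 ± 0.24, limma adjusted p = 0.0243) on the log2 scale. The sets share no library, but both interactions use the same set 3 libraries.

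From set 3 to set 5, 27 of the 36 genes changed in WT cells, 17 higher and 10 lower (66.1% of all genes were called, 29.3% higher and 36.8% lower), and 27 changed in KO cells, 18 higher and 9 lower (59% of all genes, 35.6% higher and 23.4% lower). The change was lost on leaving out 1 library for Itga5 in WT cells (without WT replicate 3 of set 3, adjusted p = 0.0524), Itgav in KO cells (without KO replicate 2 of set 3, 0.0722), Itgae in KO cells (without KO replicate 2 of set 3 or KO replicate 1 of set 5, 0.0782 and 0.072) and Klf2 in WT cells (without any of 3, 0.0589 to 0.129). Enah rose in both, by 6.396 ± 0.33 in WT (84.2-fold, adjusted p = 2.89e-10) and 7.44 ± 0.33 in KO cells (174-fold, 3.48e-11) on the log2 scale. Lgals1 rose by 5.17 ± 0.21 and 3.81 ± 0.21, Lgals3 by 7.21 ± 0.66 and 3.25 ± 0.66, Itgb5 by 5.09 ± 0.41 and 3.84 ± 0.41, and Itgb3 by 3.77 ± 0.20 and 4.28 ± 0.20 log2 units in WT and KO cells. S1pr4 rose by 2.67 ± 0.14 and 2.48 ± 0.14, and Selplg by 1.91 ± 0.18 and 2.44 ± 0.18. Marker levels of other cell types moved between these sets too. In WT libraries the summed log2 level of NK cell markers was 9.73 to 10.67 in set 3 and 8.59 to 8.69 in set 5, that of CD8 T cell markers 9.93 to 10.202 and 7.78 to 8.58, and that of erythroid markers 8.28 to 9.26 and 6.10 to 6.22. The NK cell sum of WT set 5 rested mostly on Eomes, at 8.35 to 8.61 there and 8.48 to 10.24 in set 3. Ncr1 and Klra8 were at the floor in all 3 WT libraries of set 5. In KO libraries the level of erythroid markers was 11.60 to 13.79 in set 3 and 4.36 to 5.33 in set 5, and that of macrophage markers 7.02 to 7.57 and 9.41 to 9.84. Their part in the changes was not tested. Itga4 fell in both genotypes, by 2.23 ± 0.36 and 1.74 ± 0.36. Itgb8 was at log2 levels of 5.33 to 5.78 in WT and 5.69 to 6.23 in KO libraries of set 3, and in set 5 it sat at the floor in WT and at 1.08 to 2.15 in KO libraries.

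In 4 genes the WT and KO cells moved in opposite directions from set 3 to set 5. Itgb1 rose by 0.31 ± 0.13 in WT cells (adjusted p = 0.0444) and fell by 0.62 ± 0.13 in KO cells (0.000422). The WT change of Itgb1 was lost without any of 5 of the 6 libraries, all but WT replicate 1 of set 3 (0.0567 to 0.209). Podxl rose by 1.73 ± 0.35 in WT (0.000327) and fell by 2.14 ± 0.35 in KO cells (3.42e-05). Tspan9 fell by 1.48 ± 0.38 in WT (0.00254) and rose by 2.47 ± 0.38 in KO cells (1.9e-05). Tspan32 fell by 1.76 ± 0.16 in WT (1.07e-07) and rose by 1.53 ± 0.16 in KO cells (3.73e-07). Cd81 fell by 1.66 ± 0.25 in WT (2.41e-05), while its difference in KO cells, 0.67 ± 0.25, was 0.29 on the centred values and not called.

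**Figure D4:**
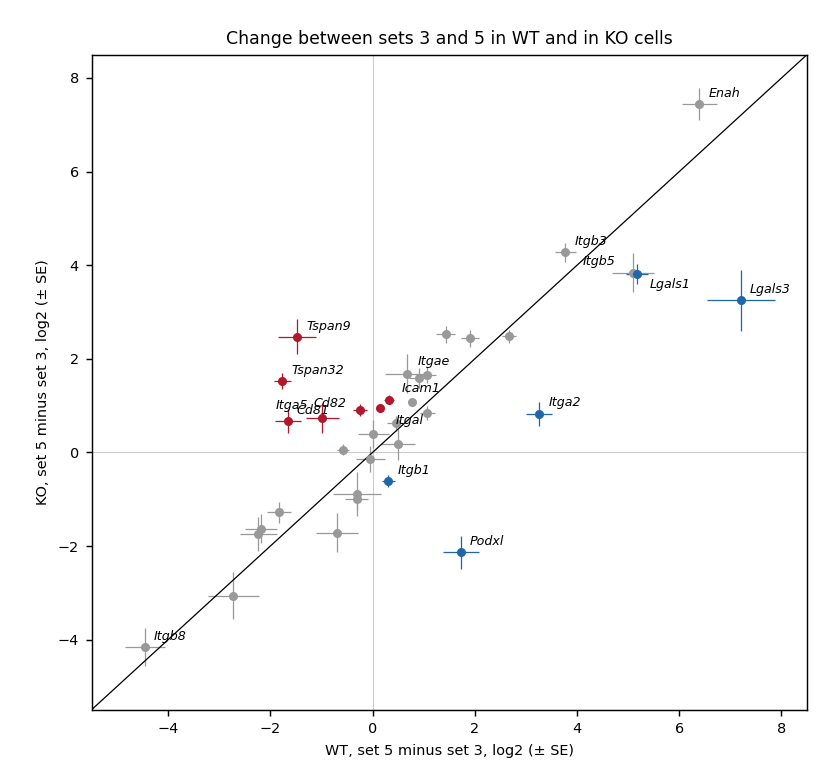
Log2 difference from set 3 to set 5 in WT cells (horizontal) and in KO cells (vertical) for the 36 genes, with SE bars; the line marks equal change, and red and blue points are genes whose KO effect was called higher or lower in set 5 than in set 3. Tspan9 and Tspan32 lie at upper left, where WT fell and KO rose, and Podxl lies at lower right.

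Between sets 5 and 6 the model without the replicate number called 5 members in WT cells, where 1.85% of all genes were called (1.49% higher, 0.359% lower): Itgae (1.76 ± 0.42), Alcam (1.38 ± 0.32) and Itgal (0.38 ± 0.07) were higher in set 6 on the log2 scale, and Klf2 (-0.85 ± 0.16) and Actn1 (-1.01 ± 0.23) were lower. In KO cells it called 6 (5.9% of all genes, 3.87% higher and 2.02% lower): Itga2 (1.07 ± 0.25) and Lgals1 (0.85 ± 0.21) were higher, and Itga6 (-0.63 ± 0.17), S1pr1 (-1.14 ± 0.33), Klf2 (-1.54 ± 0.16) and Actn1 (-1.01 ± 0.23) were lower. Libraries of equal replicate number deviated together in these sets, and once the replicate number entered as a block within genotype the counts became 15 in WT (12 higher, 3 lower), beside 9.13% of all genes, and 20 in KO cells (14 higher, 6 lower), beside 18% of all genes. On the deposited values alone, without the block, the calls were 5 higher and 2 lower in WT and 7 and 4 in KO cells. Leaving out single libraries without the block left 0 to 4 calls in WT and 1 to 5 in KO cells; Klf2 in KO cells was called each time.

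Other genes of adhesion and trafficking were taken from 8 lists, of which 146 genes were measured. In set 3, 13 were higher and 12 lower in KO cells, in set 5, 44 higher and 12 lower, and in set 6, 35 higher and 12 lower. The shares of all genes called to read these and the list counts against are 6.91% higher and 3.28% lower in set 3, 24.9% and 8.08% in set 5, and 18.8% and 4.59% in set 6. Of 36 measured integrin activators and adaptors, 18 were higher and 2 lower in set 5, and 14 higher and 1 lower in set 6; their median log2 difference was 0.70 in set 5 and 0.56 in set 6, and 0.31 and 0.14 on centred values. Rassf5, the Rap effector that activates LFA, was higher by 1.21 ± 0.08 in set 5 (adjusted p = 1.94e-08) and 0.94 ± 0.08 in set 6 (2.34e-07) on the log2 scale. Pxn, the focal adhesion adaptor paxillin, was higher by 0.97 ± 0.08 and 0.84 ± 0.08. Cytip, which loosens LFA-mediated adhesion through cytohesin, was lower in set 3 (-0.73 ± 0.11, 0.000683) and set 5 (-0.39 ± 0.11, 0.00741).

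Of 15 measured selectins and enzymes that build their ligands, 2 were higher and 4 lower in set 5, and 1 higher and 5 lower in set 6, beside 2 higher and none lower in set 3. Fut7, the fucosyltransferase that completes selectin ligands on T cells, was at log2 levels of 10.63, 10.997 and 10.86 in WT and 7.70, 9.47 and 8.99 in KO libraries of set 5. Set 6 had levels of 11.14, 10.89 and 11.01 against 9.70, 10.10 and 9.82. KO was below WT in every library of these sets (-2.11 ± 0.30, adjusted p = 2e-05, and -1.14 ± 0.30, 0.00429). St3gal6, a sialyltransferase of the same pathway, was higher in KO cells of set 3 (1.93 ± 0.30, 0.000649) and lower in sets 5 (-1.19 ± 0.30, 0.00262) and 6 (-1.20 ± 0.30, 0.00254).

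Of 19 measured genes of sphingosine 1-phosphate signalling and egress, 1 was higher and 2 lower in set 3, 5 higher and none lower in set 5, and 3 higher and 1 lower in set 6. Sgpl1, the lyase that breaks down sphingosine 1-phosphate, was higher by 1.39 ± 0.10 and 1.30 ± 0.10 log2 units in sets 5 and 6. Grk2, a kinase that desensitises S1pr1, was higher by 1.18 ± 0.08 and 1.14 ± 0.08. Of 18 measured other tetraspanins and partners, 4 were higher and 2 lower in set 5, and 3 and 2 in set 6. Cd37 was higher by 1.16 ± 0.11 and 1.14 ± 0.11, and Igsf8, a partner of Cd9 and Cd81, was lower (-0.96 ± 0.10 and -0.76 ± 0.10). In set 3 Cd63, a lysosomal tetraspanin, was higher by 2.68 ± 0.43.

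Of 4 measured other integrin subunits, Itga9 was lower in set 5 (-1.77 ± 0.62, adjusted p = 0.0228) and set 6 (-1.81 ± 0.62, 0.0203), and none was called in set 3. Of 27 measured other adhesion receptors, 3 were higher and 3 lower in set 3, 7 and 3 in set 5, and 5 and 1 in set 6. Pecam1 was higher by 1.66 ± 0.19 and 1.61 ± 0.19 log2 units in sets 5 and 6, and Jaml, a junctional adhesion molecule of leukocytes, was lower in all 3 sets (-0.94 ± 0.23, -1.29 ± 0.23 and -1.86 ± 0.23). Of 7 measured other galectins and partners, Lgals8 was higher by 1.71 ± 0.22 and 1.58 ± 0.22 in sets 5 and 6. Of 20 measured actin linkers, 2 were higher and 1 lower in set 3, 6 and none in set 5, and 6 and 1 in set 6; Evl, an Ena/VASP protein like Enah, was lower in set 3 (-1.19 ± 0.22, 0.00271) and set 6 (-0.59 ± 0.22, 0.0314).

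The authors' deposited table called 7 of the 36 genes in set 3, all higher (3.91% of all genes), 13 higher and 4 lower in set 5 (37.8% of all genes), and 12 higher and 3 lower in set 6 (35.1% of all genes). In the authors' deposited table were 7 of the 12 set 3 calls made here, 14 of the 15 in set 5 and 15 of the 19 in set 6. For set 6 against set 5 the authors' deposited table called none of the 36 in WT cells, so 0 of the 5 calls here, and 1 lower in KO cells, which is 1 of the 6 calls here. The authors' test may differ from the one here, which asked for any difference on both scales. With a minimum fold of 1.2, limma's adjusted p here was 0.0899 for Itgb5 in set 3 and 0.352 for Itga6 in set 6. The authors' values were the same. For Itgal in set 6 it was 0.465, against the authors' 5.83e-05. The adjusted p values given here are the larger of the 2 scales. The authors' log2 fold change for Itgal, 0.753, was the difference on the deposited values, so these 2 adjusted p values are not on the same scale. A call missing from the authors' table is therefore not by itself a disagreement.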

How the data were processed

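Adhesion genes were analysed in 18 libraries, 6 groups of 3, grouped by the labels. The values are log2 expression levels deposited by the authors; Salmon 1.9.0, edgeR, limma and GRCm39 are named in the submitters' processing notes, with no role, and no source used here states how values were normalized. The authors' deposited contrast table gives log2 fold changes and p-values, per the file headers. The values are nearly equalized in distribution within groups, which can narrow the spread that the p-values rest on.

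Every gene of the table was fitted with limma 3.58.1 in R 4.3.3 (6 group means, variance trend, 12 residual degrees of freedom, Benjamini-Hochberg adjusted p under 0.05), on the deposited and on median-centred values, and called where both passed with the same sign. No gene failed the low-value filter (3 libraries at a log2 of 0 or above). For KO minus WT in set 3 the model was tested on simulated data. The members and lists were chosen with earlier results of these data known. All members may be named; of each other list, at most 3 called genes with the smallest adjusted p per direction and comparison, and Id3. Deviations of libraries with equal replicate number correlated at -0.08 to 0.18 between KO and WT of a set, 0.025 to 0.15 for KO and 0.069 to 0.074 for WT sets 3 and 5, and 0.22 to 0.34 for KO and 0.12 to 0.16 for WT sets 5 and 6; the last 2 were taken as paired, from the data and not the labels. Unequal numbers correlated at -0.25 to -0.075 for KO and -0.095 to -0.034 for WT sets 5 and 6. For WT sets 3 and 5 they correlated at -0.049 to -0.03, also below all equal numbers, and for KO sets 3 and 5 at -0.15 to 0.061. The sets 3 and 5 were not taken as paired. Marker levels are log2 of summed linear values. Alternatives covered scaling, quantile normalization, a pseudocount of 1, the variance model (no trend, robust moderation), library weights, the replicate block, the groups fitted, a minimum log2 difference of 1, a minimum fold of 1.2, the filter (none, or a log2 of 2) and leaving out each library; the block within genotype was added after seeing the data. Promoters came from RefSeq. 1 gene of the other lists is counted but not reported by name.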

Additional observations from a re-analysis of the deposited data

Results flagged for a closer look

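The KO minus WT log2 difference changed between sets, by limma's interaction test on both scales, in the members that follow; each value is the later effect minus the set 3 effect on the deposited log2 scale. Among integrin subunits the change from set 3 to set 5 was -2.43 for Itga2, 1.72 for Itga5, 0.802 for Itgal and -0.924 for Itgb1. From set 3 to set 6 it was -1.8 for Itga2, 2.18 for Itga5, 0.766 for Itgal, -0.981 for Itgb1, -1.47 for Itgb5 and 1.35 for Itgb7. Among ligands and mucins it was -3.87 for Podxl and 0.801 for Icam1 in set 5, and -3.14 for Podxl and 0.935 for Icam2 in set 6. Among tetraspanins it was 2.33 for Cd81, 1.15 for Cd82, 3.95 for Tspan9 and 3.29 for Tspan32 in set 5, and -2.01 for Cd9, 2.7 for Cd81, 1.28 for Cd82, 2.32 for Tspan9 and 3.25 for Tspan32 in set 6. For the galectins it was -1.36 for Lgals1 and -3.96 for Lgals3 in set 5, and -0.848 for Lgals1 and -4.08 for Lgals3 in set 6.

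Some of these calls were lost on leaving out single libraries. For set 5 minus set 3, Icam1 lost its call without any of 8 of the 12 libraries (adjusted p 0.0543 to 0.119) and Itga5 without any of 5 (0.059 to 0.0962). For set 6 minus set 3, Itgb5 lost it without any of 10 (0.0542 to 0.127), Icam2 and Itgal without any of 7 each (0.055 to 0.082 and 0.0561 to 0.0877), Lgals1 without any of 4 (0.051 to 0.0747), Itgb7 without WT replicate 1 of set 6 (0.0507) and Tspan9 without KO replicate 3 of set 6 (0.0555). The causes of these differences between sets were not tested.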

How the results depend on the processing

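Over all alternatives 3365 member calls were recomputed. Of these, 3064 kept direction and threshold, 301 kept direction only and 0 reversed. Some of the kept calls were fixed in advance. The filter alternatives kept the same 12547 genes, and a call that needs both scales also holds on the deposited or the centred values alone. With a minimum log2 difference of 1 the KO minus WT calls of sets 3, 5 and 6 were 7, 9 and 10, that of the mean was 8, with 9 for the set 6 minus set 3 interaction and 3 each for WT and KO cells of set 6 minus set 5. With a minimum fold of 1.2, sets 3 and 6 gave 7 and 9 and the mean gave 10, with 9, 0 and 1 for the same further comparisons. With only the groups compared, set 3 gave 5 and KO set 6 minus set 5 gave 3. KO set 6 minus set 5 gave 11 on the deposited values alone, and WT set 6 minus set 5 gave 3 after quantile normalization, 2 without the variance trend and 12 with library weights. The cause was not tested.

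Leaving out single libraries gave 8 to 13, 12 to 14 and 14 to 17 calls for sets 3, 5 and 6, and 19 to 22 calls for the mean. The lowest set 3 count, 8, was without KO replicate 1. The interactions gave 10 to 13 for set 5 minus set 3, 12 to 15 for set 6 minus set 3 and 0 for set 6 minus set 5. Set 5 minus set 3 gave 25 to 26 in WT and 25 to 28 in KO cells, and set 6 minus set 5 gave 0 to 4 and 1 to 5. The replicate block over all groups gave 13, 16 and 20 calls in sets 3, 5 and 6, and 4 and 8 for WT and KO set 6 minus set 5; the block within genotype, added after seeing the data, gave 15 and 20, and 4 for the KO effect of set 6 minus set 5. Outside sets 5 and 6 equal numbers were not treated as pairs, although in WT sets 3 and 5 they correlated weakly and above all unequal numbers. Since depth is unknown, genes near the lowest value (Itgax, Itgb8, Podxl in KO cells) allow no firm size of change.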
